A study of Mus musculus with 8 samples.

Results

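The complement components and receptors described here are 9 mouse genes, *C1qa*, *C1qb*, *C1qc*, *C3*, *C4b*, *C3ar1*, *C5ar1*, *C5ar2* and *Cfp*, chosen by symbol through their Ensembl identifiers from the 55573 genes listed in the count matrix. All 9 were among the 20153 genes with enough counts to be tested. They were measured by RNA sequencing of microglia, the resident macrophages of the brain, sorted from the brains of 4 mutant and 4 control mice at postnatal day 60, with 1 library per mouse. Mutant mice carried floxed alleles of *Smad2* and *Smad3* with Cre expressed from the *Cx3cr1* locus (Smad2/3 fl/fl;Cx3cr1 Cre), a Cre that acts in microglia and also in related macrophages such as those of the brain borders. The labels call the controls wild-type littermates, whereas the Methods state that no mice were free of transgenes and that controls generally carried Cre and 1 floxed allele, so both groups may carry Cre. Mice had been backcrossed to C57BL6/J, and mononuclear cells from a Percoll gradient were sorted as tdTomato-positive cells examined for CD45 and CD11b. The comparison asks how expression differs in microglia in which Cre targets the genes of SMAD2 and SMAD3, the canonical transducers of TGFβ signals.

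Complement is a cascade of plasma and tissue proteins that tags debris, microbes and, in the developing brain, synapses for removal by phagocytes. C1q, built from the chains of *C1qa*, *C1qb* and *C1qc*, recognizes the target and starts the classical pathway, C4 and C3 are cleaved and deposited on it, and properdin, the product of *Cfp*, stabilizes the convertase of the alternative pathway. The small fragments C3a and C5a released along the way bind receptors encoded by *C3ar1*, *C5ar1* and *C5ar2*, and microglia are the main source of C1q in the adult brain.

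Expression is given as CPM, read counts brought to a common library total after TMM scaling for differences in library composition, and a gene was called changed at an adjusted p under 0.05 in edgeR's quasi-likelihood test over all tested genes. Of the 9 genes, *C4b*, *Cfp* and *C5ar1* rose in mutants, *C5ar2* fell, and *C1qa*, *C1qb*, *C1qc*, *C3* and *C3ar1* did not pass the test. Across all tested genes 4.36% were called higher and 7.97% lower, and 22.1% had groups that did not overlap in CPM, as did the same 4 of the 9 genes. The median log2 fold change of the 9 genes was -0.04, beside 0.01 over all tested genes, and their median size regardless of sign was 0.64, beside 0.54.

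Between 35639502 and 41946479 reads were counted on genes in each library. *Smad3* was 39.4 to 56.8 CPM in controls and 15.0, 9.60, 35.1 and 17.5 CPM in mutants 1 to 4, a log2 fold change of -1.33 (edgeR adjusted p = 0.0429) that kept its call in 1 of the 8 fits that left out a mouse, the one without mutant 3. *Smad2*, at 62.6 to 92.3 CPM in controls and 42.6 to 75.8 CPM in mutants, did not pass the test (log2 fold change -0.34, edgeR adjusted p = 0.340). Reads on exons outside the deleted ones are part of these counts. *Xist*, transcribed from the inactive X chromosome, was 99.3 to 183 CPM in every control and at most 0.561 CPM in every mutant. Y-linked *Ddx3y* was at most 0.224 CPM in controls and 9.73 to 59.7 CPM in mutants. In these genes the controls had the pattern of females and the mutants that of males. Genotype and sex thus cannot be told apart for any gene in these libraries, autosomal or sex-linked. Of 7 microglial markers, 6 were lower in mutants, with a summed level of 28074 to 42522 CPM in controls and 5770 to 7960 CPM in mutants. Of 7 markers of border-associated macrophages, 5 were higher, with sums of 199 to 271 CPM in controls and 2109 to 2871 CPM in mutants. In bulk RNA, a different share of cells of a type and a different amount of RNA per cell cannot be told apart.

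*C1qa* (ENSMUSG00000036887), *C1qb* (ENSMUSG00000036905) and *C1qc* (ENSMUSG00000036896), which encode the A, B and C chains of C1q, lie side by side on the minus strand of chromosome 4 of GRCm38. *C1qb* spans 136880129 to 136886187, *C1qc* 136889804 to 136893065 and *C1qa* 136895917 to 136898803, with 3616 bases between *C1qb* and *C1qc* and 2851 between *C1qc* and *C1qa*. Because the neighboring chain genes varied together between libraries, the RefSeq promoter windows of *C1qb* and *C1qc* (GRCm38.p6, minus strand, 250 bases before to 50 after the start, 5′ to 3′) are shown. Capitals mark, on either strand, the letters GAGGAA found at the core of PU.1 sites, CAGAC of SMAD elements and TGCTGA of MAF half-sites, which do not overlap each other here.
C1qb, chr4:136886151-136886450: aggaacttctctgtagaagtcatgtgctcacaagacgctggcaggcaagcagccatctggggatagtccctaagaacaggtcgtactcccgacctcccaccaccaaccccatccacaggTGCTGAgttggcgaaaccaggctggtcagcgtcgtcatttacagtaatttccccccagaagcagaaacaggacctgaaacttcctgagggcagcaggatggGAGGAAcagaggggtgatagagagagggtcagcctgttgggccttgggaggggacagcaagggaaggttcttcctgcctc
C1qc, chr4:136892865-136893164: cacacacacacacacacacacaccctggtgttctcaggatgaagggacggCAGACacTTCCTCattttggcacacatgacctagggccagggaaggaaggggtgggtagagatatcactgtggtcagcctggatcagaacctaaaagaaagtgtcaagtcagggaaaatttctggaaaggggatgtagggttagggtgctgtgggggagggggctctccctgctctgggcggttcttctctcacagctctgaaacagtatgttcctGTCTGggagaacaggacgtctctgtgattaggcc
The *C1qb* window held 1 GAGGAA and 1 TGCTGA, and the *C1qc* window held 1 GAGGAA and 2 CAGAC. Of 32851 RefSeq promoter windows of this length, 28.3% held GAGGAA, 49.6% CAGAC and 19.5% TGCTGA on either strand, and these motifs were chosen after the expression values were known, so a match is a description only.

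*C1qa* was 2643, 3186, 3722 and 4499 CPM in controls 1 to 4 and 2659, 3093, 4060 and 3899 CPM in mutants 1 to 4. The groups overlapped along most of their range, with means of 3512 ± 791 CPM in controls and 3427 ± 665 CPM in mutants (SD, n = 4 each). On the log2 scale mutants differed from controls by -0.04 (standard error 0.22, 95% interval -0.52 to 0.45, edgeR adjusted p = 0.940). *C1qb* was 5824, 6786, 8947 and 9494 CPM in controls and 5417, 6434, 7564 and 7331 CPM in mutants. Its 4 mutants sat at or below the middle of the control range, and its log2 fold change was -0.22 (standard error 0.21, 95% interval -0.68 to 0.25, edgeR adjusted p = 0.544). *C1qc* was 3660, 5156, 6240 and 6481 CPM in controls and 3829, 4062, 4862 and 5084 CPM in mutants. All 4 *C1qc* mutants lay within the control range, and the log2 fold change was -0.27 (standard error 0.21, 95% interval -0.75 to 0.21, edgeR adjusted p = 0.445). The intervals of the 3 chains reach from 0.595 to 1.37 of the control level, so smaller differences were not detectable with 4 mice per group.

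The 3 chains rose and fell together from library to library, with control 1 the lowest and control 4 the highest control for each, and mutant 1 the lowest mutant for each. Summed, they gave 12127 to 20474 CPM in controls and 11905 to 16486 CPM in mutants. Control 1 and mutant 1 also held the highest summed level of 6 oligodendrocyte markers, 4498 and 3791 CPM, against 707 to 1662 CPM in the other controls and 1162 to 2116 CPM in the other mutants. With the level of neuron, astrocyte and oligodendrocyte markers as a covariate, the log2 fold changes of *C1qa*, *C1qb* and *C1qc* were 0.04, -0.14 and -0.18, again with no call. Within a library and per kilobase of exon, the ratio of *C1qa* to *C1qb* was 0.435 to 0.496 in controls and 0.503 to 0.562 in mutants. The groups did not overlap, by a narrow gap, with means of 0.474 ± 0.028 and 0.534 ± 0.030 (SD, n = 4 each). This ratio was not tested and neither chain was called, while 22.1% of all tested genes had groups that did not overlap in CPM. The ratio of *C1qc* to *C1qb* overlapped, at 0.354 to 0.428 in controls and 0.356 to 0.398 in mutants, and so did that of *C1qa* to *C1qc*, at 1.11 to 1.34 and 1.29 to 1.55.

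*C4b* (ENSMUSG00000073418, chromosome 17, 34728380 to 34743882, minus strand) encodes the fourth component, which C1q-bound proteases cleave and which then helps to form the classical C3 convertase. It was 4.52, 6.19, 1.40 and 2.42 CPM in controls 1 to 4 and 89.9, 31.6, 29.8 and 33.9 CPM in mutants 1 to 4. The groups did not overlap, and mutant 1 stood far above the other mutants. *C4b* was 12.7-fold higher in mutants (95% interval 5.26 to 30.8, log2 fold change 3.67, standard error 0.56, edgeR adjusted p = 0.0033). Without mutant 1 the log2 fold change was 3.13 (edgeR adjusted p = 0.0057). Mutant 1 also held the highest sums of oligodendrocyte (3791 CPM) and neuron (305 CPM) markers among mutants. Control 1 did so among controls (4498 and 329 CPM). The sum of 5 astrocyte markers without *Slc1a3* was likewise highest in mutant 1 (1086 CPM) and in control 1 (1342 CPM). Among controls, *C4b* itself was highest in control 2, at 6.19 CPM. With the neuron, astrocyte and oligodendrocyte markers as a covariate, among them *Slc1a3*, which itself fell in mutants, the log2 fold change of *C4b* was 3.48 (edgeR adjusted p = 0.0022). The part of RNA from other brain cells in the *C4b* values was not tested beyond this fit.

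Of the 50-base words in *C4b* exons, 34.6% also occur in transcripts of other genes, mainly its neighbor and near copy *C4a*, so reads may have been split between the copies and the *C4b* level is uncertain to that extent. *C4a* was called as well, at 0.878, 1.07, 0.475 and 0.564 CPM in controls and 18.5, 5.70, 5.45 and 5.51 CPM in mutants (log2 fold change 3.55, standard error 0.55, edgeR adjusted p = 0.0036). *C4a* CPM amounted to 0.172 to 0.340 of *C4b* CPM in controls and 0.162 to 0.205 in mutants. The sum of both copies was 5.40, 7.26, 1.87 and 2.98 CPM in controls and 108, 37.3, 35.3 and 39.5 CPM in mutants. The groups did not overlap in this sum, whichever copy any shared reads came from.

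*C3* (ENSMUSG00000024164, chromosome 17, 57203970 to 57228136, minus strand) encodes the central component, whose fragments tag targets. It was 18.05, 18.5, 8.36 and 11.7 CPM in controls and 8.90, 13.5, 10.3 and 3.61 CPM in mutants. The groups overlapped, with controls 1 and 2 highest and mutant 4 lowest. The log2 fold change was -0.64 (standard error 0.42, 95% interval -1.58 to 0.30, edgeR adjusted p = 0.355). Controls 1 and 2 also held the highest sums of 5 neutrophil markers, 900 and 1616 CPM against 393 to 510 CPM in the other controls and 213 to 705 CPM in mutants, and the part of these markers in the *C3* values was not tested.

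*Cfp* (ENSMUSG00000001128, chromosome X, 20925454 to 20931555, minus strand) encodes properdin, the positive regulator of the alternative pathway, which myeloid cells make. Its promoter window is shown because it had the largest rise among the members with reads of their own, and held 2 GAGGAA, both on the opposite strand, and 1 CAGAC, marked as above.
Cfp, chrX:20931506-20931805: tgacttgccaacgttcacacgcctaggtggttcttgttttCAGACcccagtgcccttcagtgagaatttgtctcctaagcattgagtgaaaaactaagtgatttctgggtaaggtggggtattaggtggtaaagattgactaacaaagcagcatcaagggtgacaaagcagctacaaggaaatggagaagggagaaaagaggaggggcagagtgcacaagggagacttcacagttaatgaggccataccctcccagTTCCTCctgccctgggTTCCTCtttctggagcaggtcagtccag
*Cfp* was 26.6, 33.5, 14.8 and 18.3 CPM in controls 1 to 4 and 295, 227, 130 and 304 CPM in mutants 1 to 4. Every mutant was above every control, and the lowest mutant library, mutant 3, was still several times the highest control. Mean levels were 23.3 ± 8.43 CPM in controls and 239 ± 80.7 CPM in mutants (SD, n = 4 each), 10.3-fold higher (95% interval 5.86 to 17.9, log2 fold change 3.36, standard error 0.36, edgeR adjusted p = 0.00051). *Cfp* is X-linked, so the sex-linked split of the libraries given above bears on it directly. As for every other gene here, sex was not separable from genotype. The summed level of 5 monocyte markers, a cell type that also makes properdin, was 194 to 451 CPM in controls and 128 to 286 CPM in mutants, with none of the 5 called, and that of 5 neutrophil markers overlapped likewise with none called.

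**Figure D1:**
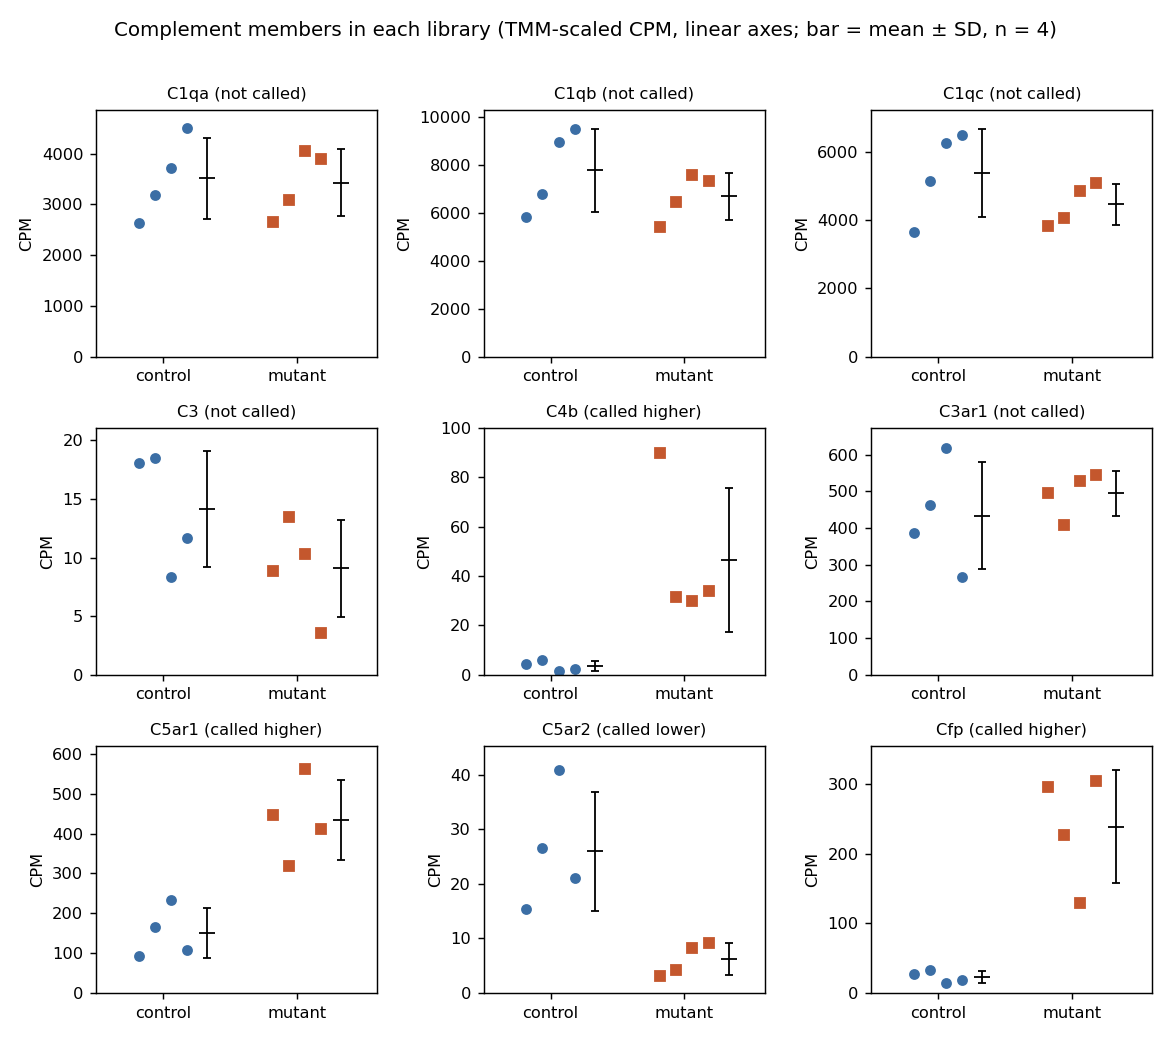
TMM-scaled CPM of the 9 complement genes in each library, on linear axes that start at 0 and differ between panels. Blue circles are the 4 controls and orange squares the 4 mutants, in replicate order, with the mean ± SD beside them. *C4b*, *C5ar1* and *Cfp* have all mutants above all controls, *C5ar2* has all mutants below all controls, and the other 5 panels overlap.

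*C3ar1* (ENSMUSG00000040552, chromosome 6, 122847138 to 122856161, minus strand) encodes the receptor for C3a. It was 387, 463, 618 and 268 CPM in controls and 496, 409, 528 and 545 CPM in mutants. The mutants lay within the control range, and the log2 fold change was 0.19 (standard error 0.24, 95% interval -0.36 to 0.74, edgeR adjusted p = 0.668).

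*C5ar1* (ENSMUSG00000049130, chromosome 7, 16246743 to 16259540) encodes the signaling receptor for C5a, and *C5ar2* (ENSMUSG00000074361, chromosome 7, 16234585 to 16244154) encodes the second C5a receptor, which does not couple to G proteins. They are neighbors on the minus strand with 2588 bases between them, and they moved in opposite directions, so both promoter windows are shown with the same marks. The *C5ar1* window held 1 TGCTGA, and the window of the *C5ar2* start nearest to *C5ar1* held none of the searched letters. RefSeq gives *C5ar2* another window further downstream, chr7:16242282-16242581, with 1 GAGGAA and 2 CAGAC, which is not printed.
C5ar1, chr7:16259289-16259588: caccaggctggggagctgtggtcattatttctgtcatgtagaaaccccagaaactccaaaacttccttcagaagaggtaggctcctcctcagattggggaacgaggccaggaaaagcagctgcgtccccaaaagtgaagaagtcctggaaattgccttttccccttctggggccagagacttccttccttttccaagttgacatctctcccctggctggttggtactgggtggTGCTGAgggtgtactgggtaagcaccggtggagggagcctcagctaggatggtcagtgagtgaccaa
C5ar2, chr7:16244105-16244404: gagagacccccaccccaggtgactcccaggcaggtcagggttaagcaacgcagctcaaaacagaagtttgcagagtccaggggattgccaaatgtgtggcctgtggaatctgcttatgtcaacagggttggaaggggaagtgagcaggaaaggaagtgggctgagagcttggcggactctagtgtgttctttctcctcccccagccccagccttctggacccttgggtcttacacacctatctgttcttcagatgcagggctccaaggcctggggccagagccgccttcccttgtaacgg
No window for *C1qa* or *C4b* was among the RefSeq windows used, and those of *C3* and *C3ar1* are not printed.

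*C5ar1* was 93.2, 166, 232 and 108 CPM in controls 1 to 4 and 447, 319, 562 and 412 CPM in mutants 1 to 4. The lowest mutant, mutant 2, was above the highest control, control 3. *C5ar1* was 2.90-fold higher in mutants (95% interval 1.79 to 4.70, log2 fold change 1.54, standard error 0.31, edgeR adjusted p = 0.0127). *C5ar2* was 15.4, 26.6, 40.9 and 21.01 CPM in controls and 3.09, 4.23, 8.32 and 9.07 CPM in mutants. All 4 mutants were below all 4 controls, and *C5ar2* was 4.20-fold lower in mutants (log2 fold change -2.07, standard error 0.43, 95% interval -3.04 to -1.10, edgeR adjusted p = 0.0144). Its lowest library, mutant 1, held 119 reads. In its exons 4.39% of 50-base words are shared with other genes, mainly *Gm26473*, which overlaps it and had no counts. Reads there may not have been assigned to *C5ar2*.

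Within each library and per kilobase of exon, *C5ar1* was 7.14 to 8.67 times *C5ar2* in controls, although both genes varied by more than that among controls, and 62.9 to 201 times *C5ar2* in mutants. The 4 controls thus shared a nearly constant ratio, and the mutants were all above it and spread widely, with mutant 1 highest and mutant 4 lowest. *C3ar1* was 1.48 to 2.48 times *C5ar1* in controls and 0.561 to 0.790 times *C5ar1* in mutants, so *C3ar1* was the higher of the pair in every control and *C5ar1* in every mutant.

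**Figure D2:**
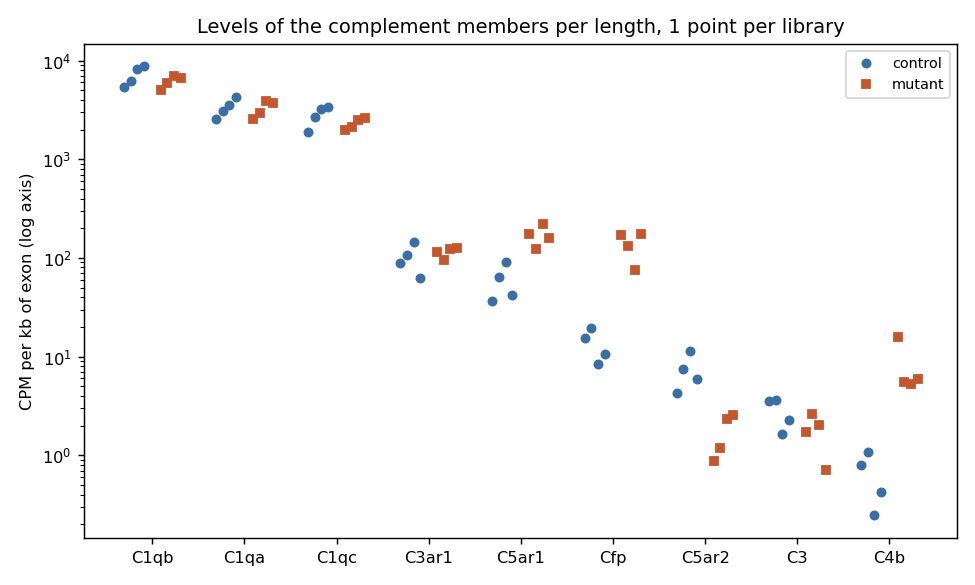
CPM per kilobase of exon of the 9 genes in each library, on a log axis, ordered by the control mean. Blue circles are controls and orange squares mutants. The 3 C1q chains sit above all other members in every library, *C5ar1* and *Cfp* mutants reach the range of *C3ar1*, and *C4b* and *C5ar2* exchange their places at the low end.

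Levels per kilobase of exon set the members in order. In controls the order of means was *C1qb* (7135 CPM per kb), *C1qa* (3377), *C1qc* (2788), *C3ar1* (101), *C5ar1* (58.4), *Cfp* (13.4), *C5ar2* (7.29), *C3* (2.75) and *C4b* (0.638). Neighbors in this order overlapped in range for *C1qa* and *C1qc*, *C3ar1* and *C5ar1*, and *Cfp* and *C5ar2*, and did not for the others. In mutants it was *C1qb* (6146 CPM per kb), *C1qa* (3296), *C1qc* (2309), *C5ar1* (169), *Cfp* (138), *C3ar1* (115), *C4b* (8.13), *C3* (1.77) and *C5ar2* (1.73), with overlapping ranges for *C1qa* and *C1qc*, *C5ar1* and *Cfp*, *Cfp* and *C3ar1*, and *C3* and *C5ar2*. *C4b* thus stood last of the 9 in controls and above *C3* in mutants, and *C5ar2* moved from above *C3* to a level that overlapped it. With the longest transcript as the length, *C1qc* came to 4476 CPM per kb in controls and 3707 in mutants and passed *C1qa* in both groups.

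Around these 9 genes stand 48 other genes of the pathway, listed by role. Of these, 29 could be tested, 5 rose, 6 fell and 18 did not pass the test. Beside these counts and those by role below, 4.36% of all tested genes were called higher and 7.97% lower. Of the 19 not tested, 9 had no count in any library. Among the other classical pathway genes 2 of 4 tested rose, *C4a*, given above, and *C2*, the protease that pairs with C4. *C2* was 1.39, 0.546, 0.168 and 0 CPM in controls and 26.9, 14.3, 21.8 and 9.10 CPM in mutants (log2 fold change 5.08, standard error 1.001, edgeR adjusted p = 0.0115). Both of its groups were low but apart. Of its 50-base words 41.5% are shared, mainly with the overlapping *Gm20547*, which had no counts. Some reads of *C2* may therefore not have been assigned to it. *Zbtb12* overlaps *C2* on the opposite strand, which unstranded libraries cannot separate.

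Among lectin pathway genes 1 of 3 tested fell, *Masp1*, a protease of the mannose-binding lectin complex. *Masp1* was 4.78, 4.92, 16.0 and 8.22 CPM in controls and 0.690 CPM in mutant 2, with no read in the other 3 mutants (log2 fold change -5.53, standard error 1.41, edgeR adjusted p = 0.0350). Its call was lost in 6 of the 8 fits that left out a mouse, those without control 2, 3 or 4 or mutant 1, 3 or 4, at adjusted p between 0.0519 and 0.107. Neither of the other genes listed under the alternative pathway, *Cfb* and *Cfd*, reached the counts to be tested. *Cfp* was thus the only tested gene listed under that pathway alone. The central component *C3*, listed apart and given above, was tested and not called. *Cfb* was at most 0.442 CPM in any library, but 73.0% of its 50-base words are shared, mainly with the overlapping *Gm20547*, so its reads may not have been assigned to it. The terminal pathway had 2 tested genes and no call, and its highest, *C8g*, had a log2 fold change of -0.49 (edgeR adjusted p = 0.610).

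Of the receptors for C3 fragments and C1q, 2 of 8 tested rose and 3 fell. *Vsig4*, an X-linked receptor for C3b and iC3b on tissue macrophages, was at most 0.930 CPM in controls and 276 to 415 CPM in mutants (log2 fold change 9.85, standard error 0.61, edgeR adjusted p = 4.8e-05). *Cd93*, first described as a C1q receptor, was 0.779 to 2.84 CPM in controls and 42.7 to 71.2 CPM in mutants (log2 fold change 5.22, edgeR adjusted p = 0.00011). Both were far apart between groups, as were the chains of complement receptor 3 in the other direction. *Itgam*, its alpha chain, was 120 to 177 CPM in controls and 22.1 to 30.9 CPM in mutants (log2 fold change -2.51, edgeR adjusted p = 9.8e-05), and its protein, CD11b, was examined in the sort, so its level is not independent of how cells were chosen. *Itgam* exons overlap the readthrough gene *Gm49368*, which had 7 counts in 1 library. *Itgb2*, the beta chain, was 368 to 530 CPM in controls and 106 to 240 CPM in mutants (log2 fold change -1.38, edgeR adjusted p = 0.0104). *Calr*, calreticulin, a chaperone that also binds C1q, was 877 to 1347 CPM in controls and 521 to 744 CPM in mutants (log2 fold change -0.72, edgeR adjusted p = 0.0357), and it lost its call without a filter on low counts (0.0610) and in 6 of the 8 fits that left out a mouse, those without control 2, 3 or 4 or mutant 1, 2 or 4 (0.0623 to 0.0938).

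Regulators showed calls in both directions, 1 of 12 tested higher and 2 lower. *Cd59a*, an inhibitor of the membrane attack complex, was 24.4, 25.4, 16.6 and 31.3 CPM in controls and 54.5, 71.5, 86.9 and 103 CPM in mutants (log2 fold change 1.70, standard error 0.26, edgeR adjusted p = 0.0030). Every mutant was above every control. *Csmd3*, a membrane protein with complement control domains, was 33.7 to 85.0 CPM in controls and 0.028 to 0.820 CPM in mutants (log2 fold change -6.74, edgeR adjusted p = 0.00041).

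**Figure D3:**
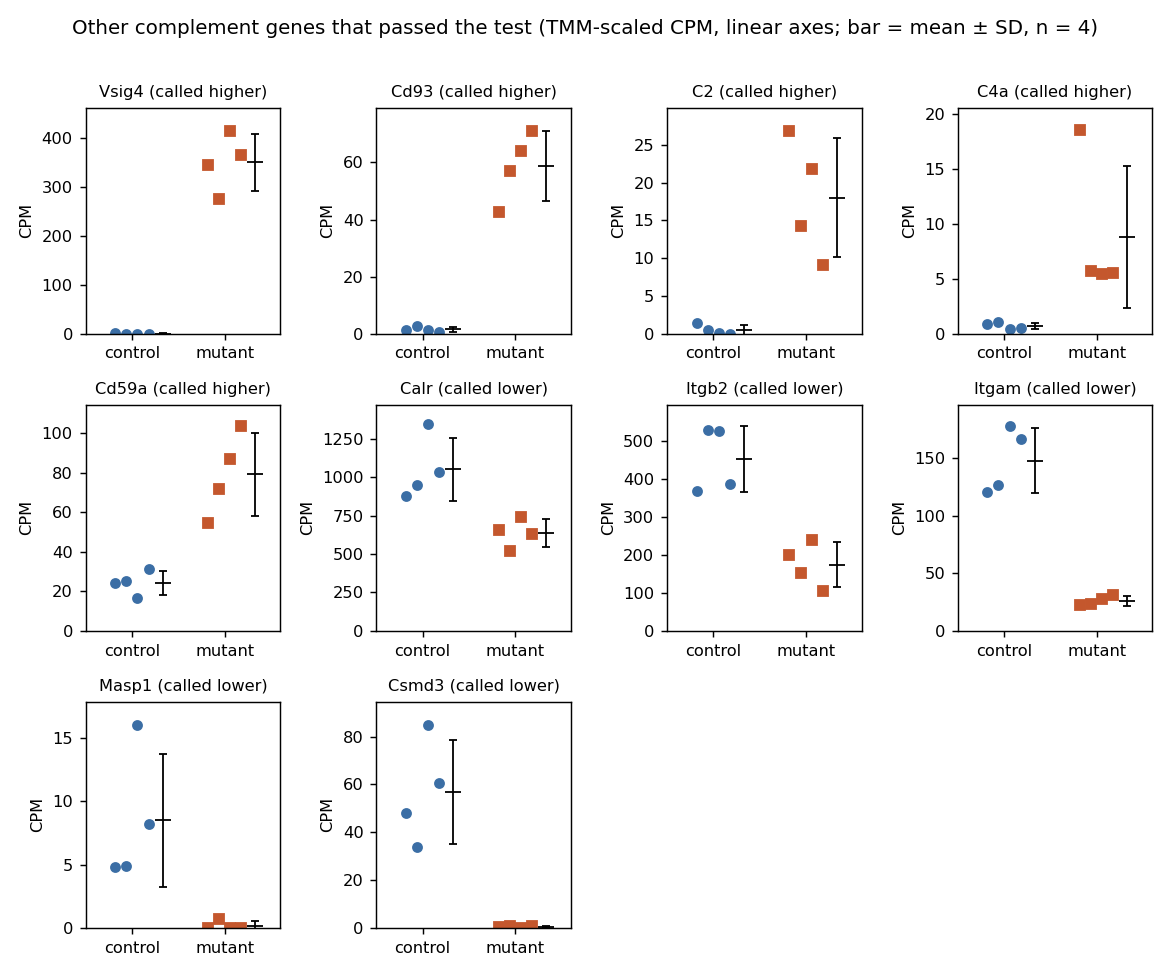
TMM-scaled CPM of 10 other complement genes that passed the test, on linear axes that start at 0 and differ between panels, with 4 controls (blue circles), 4 mutants (orange squares) and the mean ± SD. All panels show groups that do not overlap, and mutant 1 lies far above the other mutants for *C4a*.

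**Figure D4:**
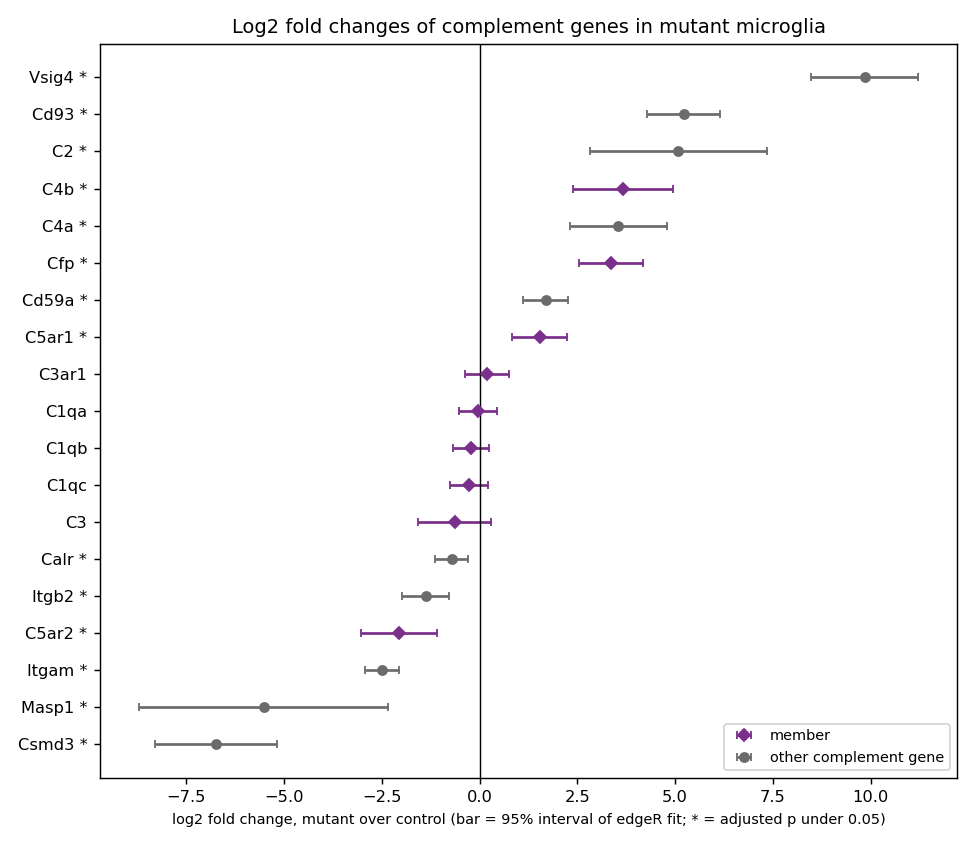
Log2 fold changes of mutants over controls for the 9 members (purple diamonds) and 10 other complement genes that passed the test (gray circles), with the 95% interval of the edgeR fit and an asterisk for an adjusted p under 0.05. The intervals of *C3ar1*, *C1qa*, *C1qb*, *C1qc* and *C3* cross 0, and those of the 4 called members do not.

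Beside those of microglia and border-associated macrophages, given above, few markers of other cell types were called. None of the markers of monocytes (5), neutrophils (5), neurons (6), oligodendrocytes (6) or endothelial cells (5 of 6 tested) was called. Of 6 lymphocyte markers 2 rose, with sums of 21.9 to 53.5 CPM in controls and 59.6 to 123 CPM in mutants. Among 6 astrocyte markers 1 fell, *Slc1a3*, at 1083 to 1756 CPM in controls and 25.8 to 170 CPM in mutants. The sums of the other 5 overlapped, at 196 to 1342 CPM in controls and 315 to 1086 CPM in mutants. Of 6 fibroblast and mural cell markers, 5 were tested and 1 fell, with *Col1a1*, *Dcn*, *Lum* and *Rgs5* at 0 in a library. The part of border-associated macrophage RNA in the rises of *C4b*, *Cfp* and *C5ar1* was not tested.

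The genes whose profiles over the 8 libraries lay nearest to each member were found among genes that averaged 3 log2 CPM or more, by the root mean square difference of log2 CPM centered on its mean. For *C1qc* the nearest was its neighbor *C1qb*, at 0.088, followed by *Hacd2* and *Gm7908*. *C1qa* lay nearest to *Ube2d1* (0.077), *Tmem14c* and *Nkap*, and *C1qb* to *Dpysl2* (0.060), *Crebbp* and *Ubxn8*. These 3 distances were the smallest of the 9. Profiles were not scaled by their spread, so a gene that varies little can lie near many others. The order of distances therefore does not rank how closely genes vary together. *C4b* lay nearest to *Dab2* (0.403), *Ifi204* and *Klra2*, *Cfp* to *Pilrb2* (0.291), *Clec12a* and *B3gnt8*, and *C5ar1* to *Cited2* (0.173), *Cyp27a1* and *Rasgef1b*. *C5ar2* lay nearest to *Smad7* (0.328), *5930403N24Rik* and *Grap*, *C3* to *Atp2a3* (0.267), *Islr* and *Rtn4ip1*, and *C3ar1* to *Fmo5* (0.119), *Rilpl2* and *Rbm3*.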

How the data were processed

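RNA of sorted microglia from 4 mutant and 4 control mice was analyzed, with mice as replicates and groups taken from the sample labels. The paper points to a different deposit for its *Smad2/3* mutants, and the libraries analyzed here were matched to that experiment by genotype, age and cell type. The deposited values are raw read counts per gene, which the authors obtained by aligning reads to mm10 with Rsubread and counting with featureCounts, without normalization. The annotation and strand setting are not given in the sources used here. The labels name Nextera XT single-end libraries, whereas the Methods name polyA-selected NEBNext Ultra II paired-end libraries, both unstranded. The authors' DESeq2 comparison (version 1.28 per the submitters' processing notes), a table of means, fold changes and p-values, was not used. Every count column was used.

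From the counts, edgeR 4.0.16 in R 4.3.3 compared mutants with controls by glmQLFit and glmQLFTest after TMM scaling, for genes that reached 10 counts in 4 or more libraries, with Benjamini-Hochberg adjustment over 20153 genes. Standard errors were the log2 fold change divided by the square root of the F statistic. The biological coefficient of variation was 0.541, so spread between mice rather than counting set the precision of well covered genes, and intervals do not cover sources shared by a group. No pair of libraries of the same group agreed within sampling noise (chi-square per gene at least 107.3).

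Of 55573 listed genes, 55480 matched GENCODE M21 on GRCm38, which gave symbols, coordinates, exon unions for lengths, exon overlaps and shared 50-base words. Promoter windows are from RefSeq (GRCm38.p6), for 7 of the 9 members. Named were the 9 members, *Smad2*, *Smad3*, *Xist*, *Ddx3y*, other complement genes called with a mean of at least 1 CPM (at most 20) or, for a role without a call, its most abundant tested gene, and the 3 nearest profiles of each member. 1 gene of the lists is counted but not reported singly here. *Cfb*, *Cfd*, *Zbtb12*, *Col1a1*, *Dcn*, *Lum*, *Rgs5*, *Slc1a3* and the genes that share words or exons are named as limits after their values were seen. The members, lists, motifs and tests were chosen with earlier results of these data known. The alternatives were DESeq2 1.42.0 on all genes, RLE size factors, library totals, a fit without genes of chromosomes X and Y other than *Cfp*, other filters, the replicate number as a block, a covariate of neuron, astrocyte and oligodendrocyte markers, each mouse left out, and the longest transcript as length. Python 3.11.15, pandas 2.3.3, numpy 2.4.6 and matplotlib 3.10.9 were used for tables and plots.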

Additional observations from a re-analysis of the deposited data

Results flagged for a closer look

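A library was singled out where, in a group of 4, the gap between its value and the nearest other value, divided by the group's range, exceeded Dixon's 95% critical value. Among 42 groups examined over the members, the other named complement genes and *Smad3*, 3 libraries met this rule, and chance gives about 1 in 20 groups. *C4b* was 89.9 CPM in mutant 1, while the other mutants had 29.8 to 33.9 CPM, and *C4a* was 18.5 CPM in the same library against 5.45 to 5.70 CPM. The 2 genes share reads, so these are not separate observations. *Masp1* was 0.690 CPM in mutant 2, with no read in the other mutants. With the others all at 0 the rule flags any value above 0. This flag was therefore fixed by the zeros and cannot be set against the chance rate.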

How the results depend on the processing

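All 4 called members kept their direction and call in each of 16 alternatives, and none of the 5 others became called. With each mouse left out, the log2 fold change ranged from 3.13 to 4.06 for *C4b* (highest edgeR adjusted p 0.0121), from 3.19 to 3.59 for *Cfp* (0.00287), from 1.36 to 1.83 for *C5ar1* (0.0355) and from -2.32 to -1.76 for *C5ar2* (0.0468). Of 347 log2 fold changes recomputed for 22 genes, 321 kept direction and side of the threshold, 21 lost a call and 5 changed sign. The 5 were all *C1qa*, uncalled throughout, at 0.077 with library totals, 0.041 with the brain cell marker covariate, and 0.15, 0.069 and 0.011 without control 4, mutant 1 and mutant 2 (-0.15 to 0.15 over all fits without a mouse). Library totals moved the median of all genes to 0.13.

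DESeq2 called 4738 genes instead of 2485, and the cause was not tested. Leaving out a mouse gave 1567 to 2499 calls over all genes, with 1572 without control 2 and 1567 without control 3, 3 members higher and 1 lower each time, and 5 to 6 other complement genes higher and 4 to 7 lower. A filter of 10 counts in all 8 libraries left 3 other complement genes called higher, since it removes genes near 0 in controls, such as *C2*. *Vsig4* had no value in the fit without genes of chromosomes X and Y other than *Cfp*. That fit compared the same libraries, so it cannot separate sex from genotype. With the longest transcript, *C1qc* was 4476 CPM per kb in controls and 3707 in mutants, *C1qc* over *C1qb* 0.626 and 0.605, and *C1qa* over *C1qc* 0.761 and 0.884. The labels do not say what the replicate numbers mark. Same-numbered deviations correlated at 0.166, 0.018, 0.144 and 0.114 for numbers 1 to 4, and 3 of 4 mutants correlated best with their own number, a hint from the data, but with number 2 near 0 the numbers were not taken to pair the mice. The replicate block gave 2383 calls and changed no call among the members. The low counts of *C5ar2*, *C4b* and *C3*, from 50 reads per library, and 4 mice per group limit what could be detected.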
